A study of Mus musculus with 4 samples.

Results

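Interferon-stimulated genes are the genes that cells switch on when interferon reaches them. The 64 members described here were taken by gene name from the 11027 genes listed for each library: guanylate-binding proteins (Gbp), immunity-related GTPases (Irgm1, Irgm2, Igtp, Tgtp1, Tgtp2, Ifi47), the Ifit, Ifitm, Oas, Schlafen (Slfn) and Ifi families, Parp9, Parp10, Parp12 and Parp14, and a set of single sensors and effectors. RNA-seq had been done on CD4+ T cells of wild-type C57BL/6 mice aged 7 to 8 weeks, from spleen and lymph nodes. Naive cells were activated in neutral conditions and infected with a retrovirus carrying either Tox2 and GFP or GFP only, and GFP-positive cells were sorted and cultured. Tox2, an HMG-box protein that binds DNA, was studied for how it acts in the differentiation of T follicular helper (Tfh) cells. The 4 groups, with 1 library each, are called Th0 GFP, Th0 Tox2, Tfh-like GFP and Tfh-like Tox2. Both media held antibodies against the cytokines IL-2, IL-4 and IFN-gamma; only the Tfh-like medium also held IL-6. The antibody to IFN-gamma was thus present in all 4 groups; how far it blocked signalling was not tested. Tox2 was expressed from the retrovirus, not from its own locus, and the number of mice behind a library is not given in the sources used here.

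Type I interferons act through the receptor chains Ifnar1 and Ifnar2 and the kinases Jak1 and Tyk2, and lead to a complex holding Stat2 and Irf9 that binds the interferon-stimulated response element (ISRE) in promoters. IFN-gamma acts through Ifngr1, Ifngr2, Jak1 and Jak2, and leads to binding at the gamma-activated site (GAS). IL-6 activates mainly Stat3, and T cells express a basal set of interferon-stimulated genes without added interferon.

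Promoters are shown first, because an ISRE is what most members with a matched promoter share beyond their names. They were picked by size of fold among members that passed the test below, separately for those with and without an ISRE match. The presence of an ISRE in the printed examples was thus fixed by the choice. Shown are up to 150 bases before the RefSeq transcription start (build GRCm38.p6), without bases that GENCODE places in an exon of the gene. Capitals mark matches on either strand to the ISRE core, which is GAAA, any 2 bases and GAAA again, or to the GAS, TTCNNNGAA. Tgtp1 (chr11:48992259-48992396, minus strand) and Tgtp2 (chr11:49064213-49064362, minus strand) are near-identical genes that rose in the Tfh-like culture. Ifi203 (chr1:173942493-173942642, minus strand, before the more downstream of its starts) fell. Parp12 (chr6:39118350-39118499, minus strand) rose both in that culture and with Tox2, and is shown as a promoter with no match in the window.
Tgtp1: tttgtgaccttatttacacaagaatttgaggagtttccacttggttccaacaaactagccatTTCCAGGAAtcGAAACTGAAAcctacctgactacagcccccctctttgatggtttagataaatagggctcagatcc
Tgtp2: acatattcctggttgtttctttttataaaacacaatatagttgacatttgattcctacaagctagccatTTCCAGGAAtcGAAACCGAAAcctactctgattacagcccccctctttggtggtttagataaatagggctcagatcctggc
Ifi203: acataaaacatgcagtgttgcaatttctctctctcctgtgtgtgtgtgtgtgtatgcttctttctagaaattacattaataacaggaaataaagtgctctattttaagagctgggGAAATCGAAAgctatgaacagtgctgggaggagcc
Parp12: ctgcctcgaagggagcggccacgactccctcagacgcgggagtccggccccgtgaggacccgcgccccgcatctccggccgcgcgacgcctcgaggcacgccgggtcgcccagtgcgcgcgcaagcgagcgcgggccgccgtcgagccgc

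In Tgtp1 the ISRE core began 77 bases and the GAS 88 bases before the start, and in Tgtp2 they began 70 and 81 bases before it. In Ifi203 the ISRE core began 35 bases before the more downstream start, and the window of the more upstream start held 0 ISRE cores. The Ifi203 stretch shown lies within the gene span that GENCODE gives. Gbp2 held 1 ISRE core, on the opposite strand and 59 bases before the start, and Ifitm1 held none; these are not printed because GENCODE places 61 and 48 of the nearest bases in their own exons. The Gbp2 core lies among those 61 bases, so it is before the RefSeq start but not before the GENCODE start. The window of Ifitm3 held 2 ISRE cores and 1 GAS, all within the 50 bases after the start, and is not printed.

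A promoter window of 300 bases (250 before and 50 after the start) was matched for 49 of the 64 members. Of these, 28 (57.1%) held an ISRE core, against 328 of 8829 tested genes with a window (3.72%). A GAS was found in 13 members (26.5%), against 8.11% of tested genes. Both motifs were found in 9 members and neither in 17, and an ISRE core overlapped a GAS in 2. The Isg15 window held 3 ISRE cores, the most of any member. They began 78, 72 and 66 bases before the start, so each overlaps the next and they form 1 run. Among members that rose in the Tfh-like culture, 13 of the 16 with a window held an ISRE core, and among the other tested members 14 of 32. Matches are descriptions of letters, and duplicated genes such as Tgtp1 and Tgtp2 share promoter sequence.

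**Figure D1:**
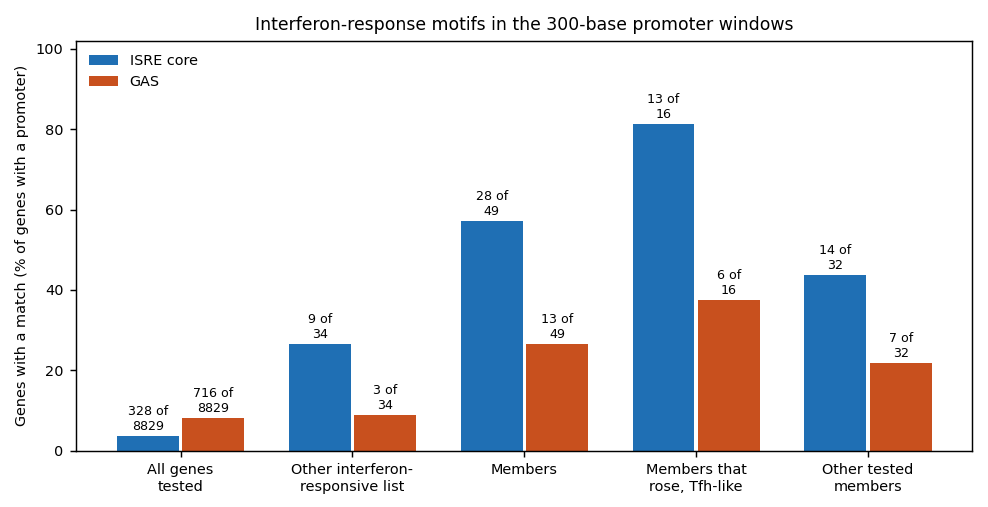
Share of genes (percent, y axis) whose 300-base promoter window held an ISRE core (blue) or a GAS (orange), for all genes tested, the list of other interferon-responsive genes, the members, the members that rose in the Tfh-like culture and the other tested members. Numbers over the bars are genes with a match of genes with a window; the ISRE core was in 28 of 49 members and 328 of 8829 tested genes.

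Total counts per library were between 13015283 and 13673774, and Tox2 counts followed the labels, with 144 and 851 in the GFP libraries and 35297 and 32246 in the Tox2 libraries. All 8 markers of CD4+ T cells were listed (summed 5067 to 5383 CPM, counts scaled to library size). Of the markers of monocytes and macrophages 2 of 6 were listed (7.55 to 12.8 CPM), of dendritic cells 2 of 5 (1.92 to 4.87 CPM), of B cells 1 of 4 (0.740 to 1.76 CPM) and of NK cells 0 of 2. For CD8 T cells 1 of 2 was listed, Cd8b1, with 9.29 to 15.2 CPM and the highest value in Tfh-like Tox2. The macrophage genes Lyz2 and Csf1r and the plasmacytoid dendritic cell gene Siglech had no row in the lists used here, which start at a low expression level.

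Levels of the members spanned a wide range. By FPKM, the deposited value per length and depth, averaged over the 4 libraries, Ifi27l2a was highest at 212, followed by Slfn2, a gene of T-cell quiescence, at 144, Ifitm2 at 85.4, Gbp2 at 59.6 and Samhd1 at 59.0. Mean FPKM was at least 10 for 20 members and under 1 for 8. The low group was Ifit1 (0.345), Ifit3 (0.238), Oasl2 (0.258), the ISG15 protease gene Usp18 (0.429), Gbp6, Gbp10, Ifi214 and Oas1e. Isg15 counts were 9 in Th0 GFP, 23 in Th0 Tox2, 19 in Tfh-like GFP and 51 in Tfh-like Tox2. For Ifit1 they were 8, 7, 12 and 34, in the same order. The names Mx1, Mx2, Rsad2, Rtp4 and Iigp1 were sought by the rule and gave no row. Ifit3 and Oas1e did not reach a CPM of 1 in any library and were not tested, which leaves 62 tested members.

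The first comparison asked which members differed between the Tfh-like and the Th0 culture. With 1 library per group there is no replicate check, so p-values do not measure the spread between samples. An additive model of culture and virus was fitted over all 4 libraries (edgeR quasi-likelihood, Benjamini-Hochberg over 10960 genes, threshold 0.05). A gene's own spread comes from the difference of the virus effect between cultures, and not from replicates. It has 1 degree of freedom and is drawn toward the spread of other genes, which weighs more (median prior 5.52). "Rose" and "fell" mark members that passed the test of this model. In bulk RNA, a smaller share of expressing cells and less RNA per cell cannot be told apart.

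Of the 62 tested members 21 rose in the Tfh-like culture and 4 fell. Over all genes 14.3% rose and 9.96% fell (24.2% passed). With scaling by total counts the members stood at 20 and 4, and the 1564 and 1092 genes of the whole table became 1500 and 1649. The members' median log2 fold was 0.39 with GFP and 0.40 with Tox2, where all genes had medians of -0.01 and 0.00. In the single pairs 15 members were at least 2-fold higher and 3 lower with GFP (background 7.78% and 3.11%, 10.9% in either direction), and 13 higher and 1 lower with Tox2 (6.56% and 2.86%, 9.43% in either direction). A gene counts here when its log2 fold is at least 1 in size and its 95% counting interval excludes no difference. With both viruses 10 members were 2-fold higher (Ddx58, Dhx58, Gbp2, Gbp2b, Gbp5, Ifitm1, Ifitm3, Parp12, Tgtp1 and Tgtp2; background 5.01%) and 1, Ifi203, was lower (1.55%). The share of mitochondrial counts was 2.45% in both Th0 libraries and 1.99% and 2.16% in the Tfh-like libraries, and its part in these differences was not tested.

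**Figure D2:**
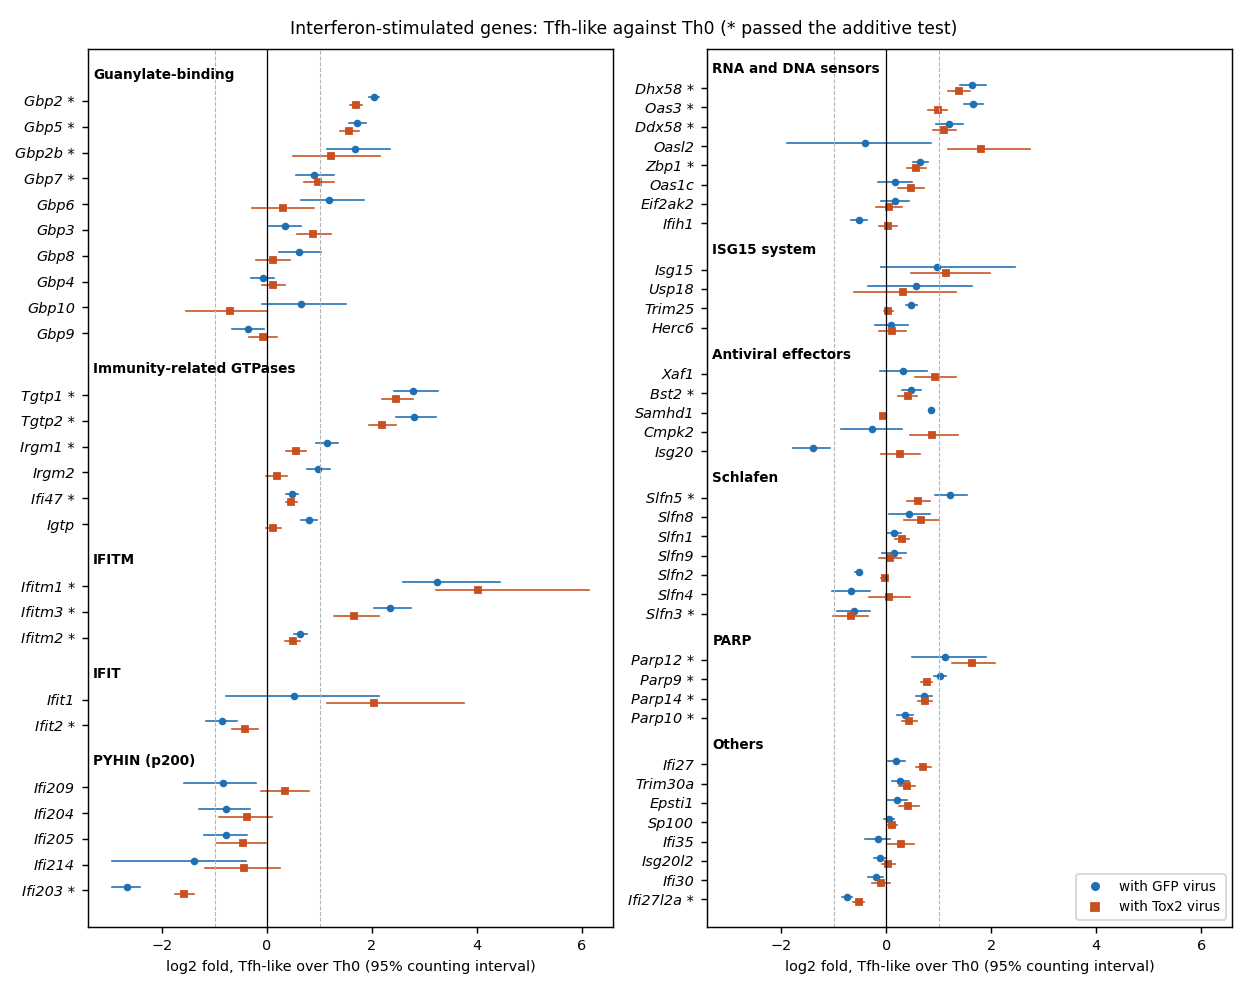
log2 fold of each tested member, Tfh-like over Th0 (x axis), with the GFP virus (blue circles) and with the Tox2 virus (orange squares); lines are 95% counting intervals, dashed lines mark 2-fold, rows are grouped by role and ordered by the joint estimate, and an asterisk marks members that passed the additive test. Ifitm1, Tgtp1, Tgtp2, Ifitm3, Gbp2 and Gbp5 lie to the right and Ifi203 to the left with both viruses.

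The signalling genes upstream of the members came from a list of 44 names, of which 28 were tested. In the Tfh-like culture 11 of the 28 rose and 2 fell (background 14.3% and 9.96%), with medians of 0.15 with GFP and 0.22 with Tox2. The names for ligands (Ifng, Ifnb1 and others) gave no row. Of the receptor chains, Ifngr1 rose by 0.54 on the log2 scale (SE 0.11, edgeR adjusted p = 0.0148). Ifnar1 had -0.37, Ifnar2 -0.16 and Ifngr2 0.00, none of which passed. The kinase gene Jak2 rose by 1.21 (SE 0.11, adjusted p = 0.000936). Stat2 rose by 0.76, Irf9 by 0.50 and Irf1, an interferon-induced transcription factor, by 1.13 (SE 0.11). Irf8 fell by 0.95 (SE 0.10) and Tlr9 by 1.70. The feedback inhibitor Socs1, which blocks Jak kinases, rose by 1.78 (SE 0.15, adjusted p = 0.000611) and the phosphatase gene Ptpn2 by 0.78.

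Among the guanylate-binding proteins, GTPases that attack the vacuoles of intracellular microbes, 4 of 10 rose and none fell (background 14.3% and 9.96%). Gbp2 had 1284 counts in Th0 GFP, 856 in Th0 Tox2, 5113 in Tfh-like GFP and 2675 in Tfh-like Tox2. Both Tfh-like libraries were above both Th0 libraries, and within each culture the GFP library was higher. The log2 fold of Tfh-like over Th0 was 2.03 with GFP (counting interval 1.95 to 2.12) and 1.70 with Tox2 (1.59 to 1.81), and the joint log2 fold was 1.87 (SE 0.12, edgeR adjusted p = 0.000292). Gbp5 had 403, 359, 1293 and 1024 counts in the same order of libraries, and rose by 1.65 (SE 0.11). Gbp2b, the mouse GBP1 gene, had only 32, 19, 103 and 45 counts and rose by 1.54 (SE 0.29). Gbp7 rose by 0.94 (SE 0.17).

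The 4 that rose lie in 1 cluster on chromosome 3 (Gbp5 from 142493978, Gbp2 to 142638008, GRCm38), whose only other measured gene, Gbp3, had folds of 0.34 and 0.88 and did not pass. Of the 5 measured genes of the cluster on chromosome 5 (Gbp4, Gbp6, Gbp8, Gbp9 and Gbp10) 0 passed in edgeR (background 24.2%). With 5 genes this cannot be told apart from the background. The median log2 fold of the chromosome 3 genes was 1.67 with GFP and 1.21 with Tox2, and that of the chromosome 5 genes 0.61 and 0.11; the difference between the clusters was not tested. Of these 5, Gbp6 was 2-fold higher with GFP, with a log2 fold of 1.19 (0.65 to 1.84), and had 0.29 (-0.28 to 0.90) with Tox2. Gbp6 and Gbp10 are hard to count apart, since 84.1% of the 50-base words in Gbp10 transcripts and 70.7% in Gbp6 transcripts also occur in other genes.

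Immunity-related GTPases act beside the guanylate-binding proteins at pathogen vacuoles, and 4 of the 6 tested rose (background 14.3%). Tgtp1 had 57 counts in Th0 GFP, 114 in Th0 Tox2, 392 in Tfh-like GFP and 614 in Tfh-like Tox2. Its near-identical neighbour Tgtp2 had 67, 157, 463 and 693. For both genes the order of the libraries was the same, with Tfh-like above Th0 and, within each culture, Tox2 above GFP. Tgtp1 rose by 2.63 in the Tfh-like culture (SE 0.16, edgeR adjusted p = 0.000229), with a ratio of 7.08 with GFP (5.35 to 9.52) and 5.59 with Tox2 (4.57 to 6.89). Tgtp2 rose by 2.47 (SE 0.18). Since 81.2% and 86.6% of the 50-base words of their transcripts occur in other genes, mostly in each other, the pair is best read as 1 measurement. Irgm1, a regulator of this family, rose by 0.84 (SE 0.16) and Ifi47 by 0.47 (SE 0.10). Igtp (0.80 with GFP, 0.11 with Tox2) and Irgm2 (0.97 and 0.18) did not pass.

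The 3 Ifitm genes encode membrane proteins that block fusion of viruses with cells, and 3 of 3 rose (background 14.3%). Ifitm3 had 7.29 FPKM in Th0 GFP, 5.30 in Th0 Tox2, 38.4 in Tfh-like GFP and 17.1 in Tfh-like Tox2, a ratio of 5.20 with GFP (4.10 to 6.65) and 3.23 with Tox2 (2.42 to 4.37). Ifitm1 had 12, 5, 127 and 108 counts, and rose by 3.84 (SE 0.36, edgeR adjusted p = 0.000926), the largest rise of any member. Ifitm2, the highest of the 3 at 59.1 to 122 FPKM, rose by 0.56 (SE 0.10). For Ifitm2 48.5% of the 50-base words are shared with other annotated genes, so its counts are uncertain. In all 3 genes Tfh-like with GFP was the highest library.

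Of the 8 tested sensors of foreign nucleic acid and enzymes they activate, 4 rose (background 14.3%). Dhx58 (LGP2) had 187 counts in Th0 GFP, 259 in Th0 Tox2, 570 in Tfh-like GFP and 650 in Tfh-like Tox2, and rose by 1.51 (SE 0.13, edgeR adjusted p = 0.000703). Ddx58 (RIG-I), the cytosolic RNA sensor, rose by 1.15 (SE 0.13). The third gene of that family, Ifih1 (MDA5), did not, with folds of -0.52 with GFP and 0.03 with Tox2. Oas3, which makes the messenger that activates RNase L, rose by 1.32 (SE 0.17), and Zbp1, a sensor of Z-form nucleic acid, by 0.61 (SE 0.10). The kinase gene Eif2ak2 (PKR) had 0.17 and 0.05 and Oas1c 0.16 and 0.46, neither of which passed.

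All 4 of the tested PARP genes, whose enzymes attach ADP-ribose to proteins, rose in the Tfh-like culture (background 14.3%). Parp9 had 10.9 FPKM in Th0 GFP, 15.3 in Th0 Tox2, 22.3 in Tfh-like GFP and 26.1 in Tfh-like Tox2, and rose by 0.89 (SE 0.11, edgeR adjusted p = 0.00277). Its partner gene Dtx3l, which is no member, rose by 1.03 (SE 0.15). Parp12 rose by 1.46 (SE 0.25), Parp14 by 0.73 (SE 0.10) and Parp10 by 0.40 (SE 0.10). In other groups Slfn5 rose by 0.89 (SE 0.18) and Bst2, encoding tetherin, by 0.44 (SE 0.11).

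The 4 members that fell came from 4 different groups. Ifi203, a PYHIN (p200) gene on chromosome 1 (173920407 to 173942672, minus strand), gave 847 counts in Th0 GFP, 1012 in Th0 Tox2, 128 in Tfh-like GFP and 326 in Tfh-like Tox2. It was 6.43-fold lower in Tfh-like GFP and 2.99-fold lower with Tox2, and the joint fold was -2.08 (SE 0.24, edgeR adjusted p = 0.00209). The other 4 tested PYHIN genes (Ifi204, Ifi205, Ifi209 and Ifi214) had folds of -0.77 to -1.40 with GFP and -0.47 to 0.33 with Tox2, and did not pass. Ifi214 had the lowest of these with GFP, -1.40 (-2.96 to -0.41), on 25, 43, 8 and 30 counts in the order above. Ifi27l2a, the most abundant member, had 292, 224, 177 and 155 FPKM in the order above and fell by 0.64 (SE 0.11). Ifit2, one of the Ifit proteins that bind foreign RNA, fell by 0.64 (SE 0.17, adjusted p = 0.0390), and Slfn3 by 0.65 (SE 0.17, adjusted p = 0.0355). With DESeq2 the culture calls of Ifit2, Slfn3, Gbp2b, Ifi47, Bst2 and Parp10 were lost, with adjusted p-values of 0.0675 to 0.248. The related Ifit1 had culture folds of 0.52 (-0.78 to 2.12) with GFP and 2.04 (1.14 to 3.75) with Tox2 and did not pass.

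The next comparison asked how the members differed with forced Tox2 expression. Of the 62 tested members 3 rose (Parp12, Parp14 and Tgtp1) and 3 fell (Gbp2, Ifitm2 and Zbp1). Over all genes 4.07% rose and 2.74% fell (6.81% passed). An unadjusted p under 0.05 was found for 30 of the 62, and for 3003 of all 10960 genes. The median log2 fold of the members was 0.13 in Th0 and 0.08 in Tfh-like, where all genes had 0.00 in both. In single pairs 5 members were 2-fold higher and 1 lower in Th0 (background 3.18% and 1.56%, 4.74% in either direction), and 8 higher and 2 lower in Tfh-like (2.86% and 1.9%, 4.75% in either direction). Only Parp12 and Isg15 were 2-fold higher with Tox2 in both cultures (background 1.23%), and no member was 2-fold lower in both, against 0.566% of all genes. With DESeq2 only Gbp2 and Parp12 passed, and the same 2 passed when each library's trend with gene length was removed. The summed level of the monocyte and macrophage markers was higher in the Tox2 libraries (11.6 and 12.8 CPM) than in the GFP libraries (9.14 and 7.55 CPM), and that of the dendritic cell markers was 3.51 and 4.87 against 3.30 and 1.92 CPM. The first sum follows Cd68 (99 and 91 counts with GFP, 149 and 159 with Tox2), while Cd14 had 20 counts in Th0 GFP and 9 in Th0 Tox2. Of the dendritic cell markers, Xcr1 likewise had 10 and 3 counts in Th0, but 1 and 21 in the Tfh-like libraries. Their part in the result was not tested.

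**Figure D3:**
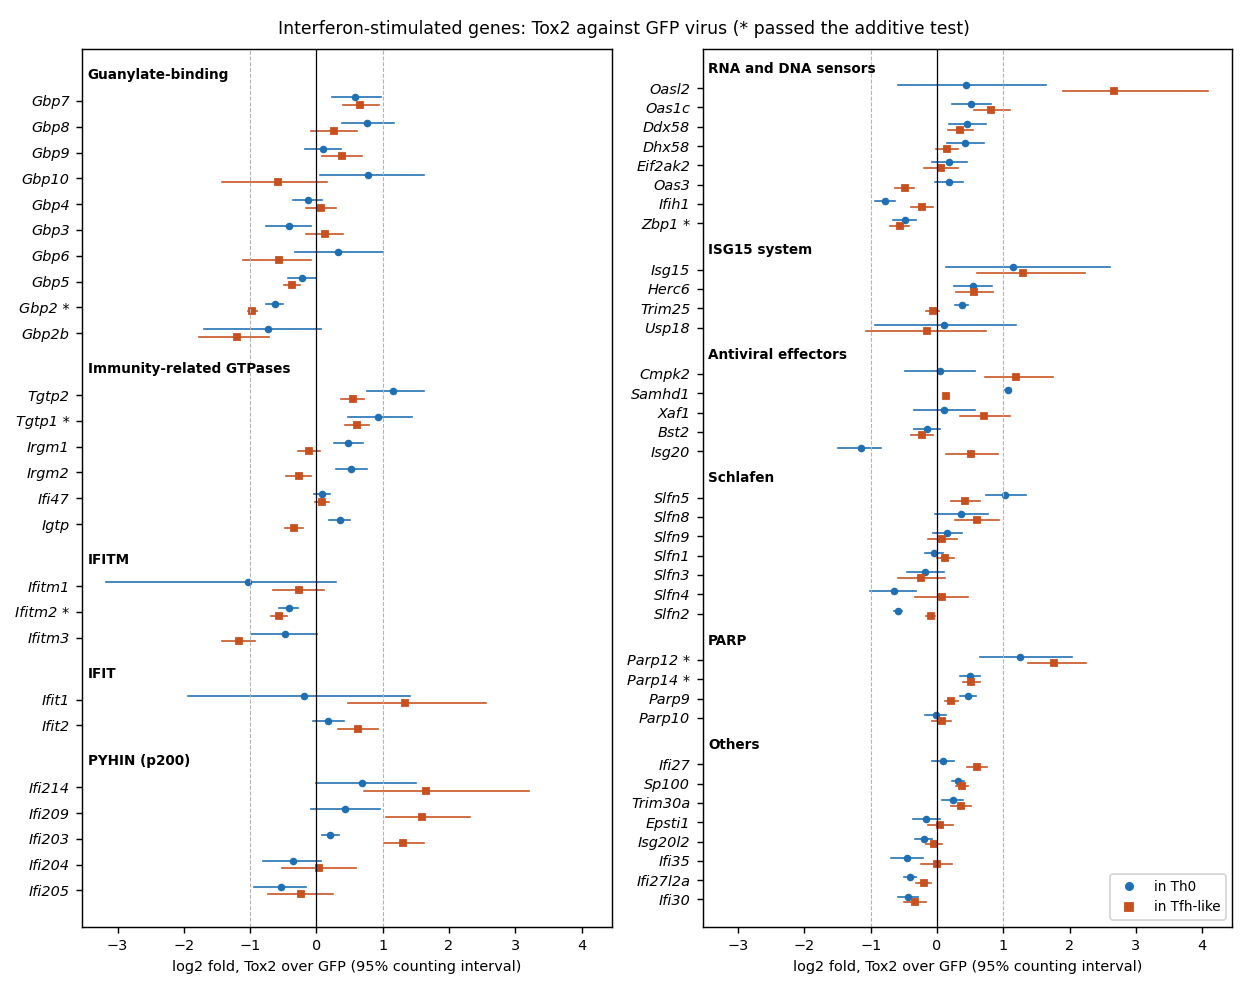
log2 fold of each tested member, Tox2 over GFP virus (x axis), in Th0 (blue circles) and in Tfh-like (orange squares), with 95% counting intervals; dashed lines mark 2-fold, rows are grouped by role and ordered by the joint estimate, and an asterisk marks the 6 members that passed the additive test. Parp12 and Isg15 lie beyond 2-fold in both cultures, and Isg20, Igtp and Irgm2 lie on opposite sides of 0.

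Parp12, on the minus strand of chromosome 6 (39086410 to 39118349), had 26 counts in Th0 GFP, 67 in Th0 Tox2, 57 in Tfh-like GFP and 203 in Tfh-like Tox2. The library with both Tox2 and IL-6 was the highest. The Tox2 ratio was 2.49 in Th0 (1.56 to 4.09) and 3.47 in Tfh-like (2.58 to 4.75), a joint log2 fold of 1.60 (SE 0.25, edgeR adjusted p = 0.0216). Parp14 rose by 0.51 (SE 0.10, adjusted p = 0.0362), and Parp9 had 0.47 and 0.22 and did not pass. Tgtp1 rose by 0.74 (SE 0.16, adjusted p = 0.0447) and its near-identical neighbour Tgtp2 had an adjusted p of 0.0521 for a fold of 0.78 (SE 0.18). In Isg15, whose ubiquitin-like protein is attached to other proteins, the ratio was 2.47 in Th0 (1.10 to 6.07) and 2.62 in Tfh-like (1.52 to 4.70), with an adjusted p of 0.0734. Herc6, the ligase of mouse ISG15, had folds of 0.54 and 0.56 and also did not pass.

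Gbp2 fell with Tox2. Its ratio was 0.645 in Th0 (0.591 to 0.704) and 0.510 in Tfh-like (0.487 to 0.535), and the joint fold was -0.81 (SE 0.12, edgeR adjusted p = 0.0178). Its neighbours Gbp2b (-0.74 and -1.19) and Gbp5 (-0.21 and -0.37) did not pass, and Gbp7 of the same cluster had positive folds of 0.59 and 0.66. Zbp1 had 617 counts in Th0 GFP, 454 in Th0 Tox2, 938 in Tfh-like GFP and 649 in Tfh-like Tox2, and fell by 0.53 (SE 0.10, adjusted p = 0.0350). Ifitm2 fell by 0.49 (SE 0.10, adjusted p = 0.0422), and Ifitm3 (-0.47 and -1.16) had an adjusted p of 0.0620. Zbp1, Parp14, Tgtp1 and Ifitm2 lost their call with DESeq2 and with the length trend removed, and Tgtp1 also with a CPM minimum of 5.

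**Figure D4:**
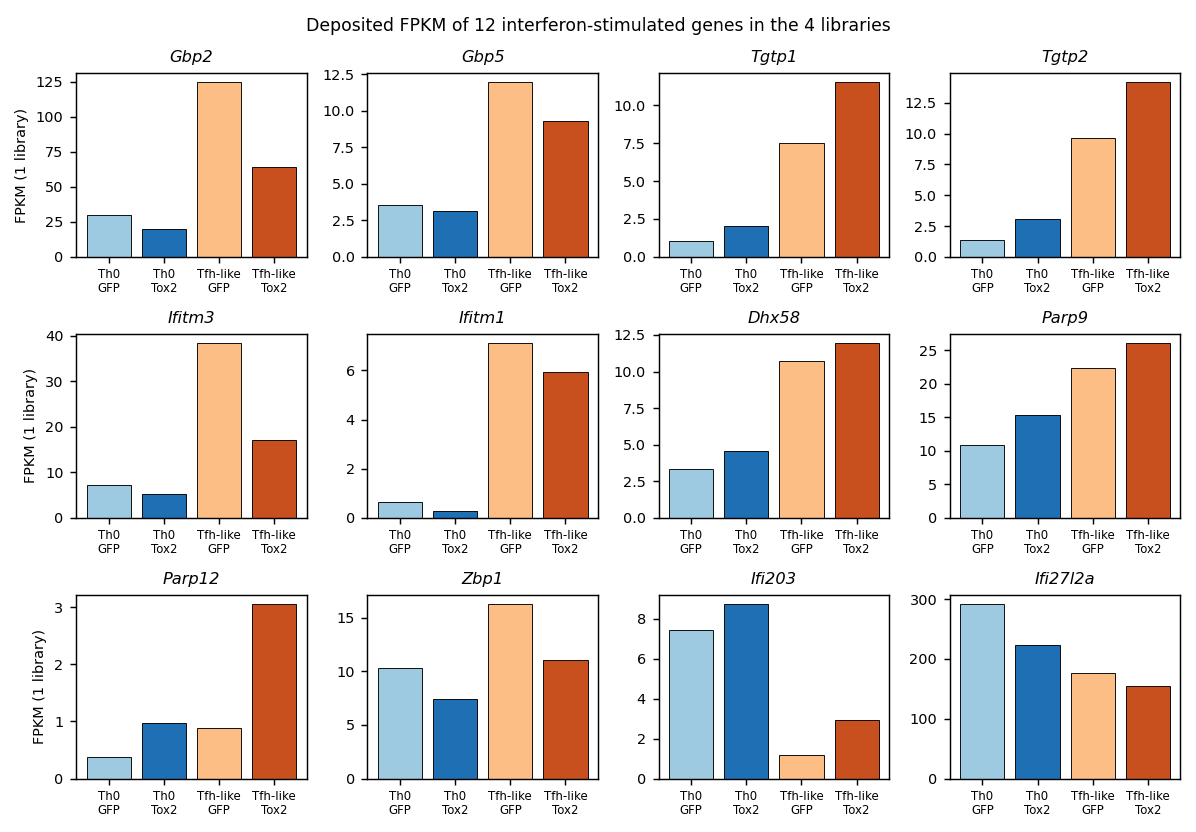
Deposited FPKM (y axis from 0, scale differing by gene) of 12 members in the 4 libraries, 1 bar per library: Th0 with GFP, Th0 with Tox2, Tfh-like with GFP and Tfh-like with Tox2. Gbp2 reached 125 in Tfh-like GFP and 64.0 in Tfh-like Tox2, while Parp12 was highest, at 3.06, in Tfh-like Tox2.

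In the signalling list 0 of 28 genes rose with Tox2 and 1 fell (background 4.07% and 2.74%). This was Ptpn6, the phosphatase SHP-1, with -0.61 (SE 0.10, edgeR adjusted p = 0.0250). None of the receptor chains, Jak kinases, Stat2 or Irf genes of the list passed. In a second list of 46 interferon-responsive genes outside the naming rule, of which 40 were tested, 20 rose and 0 fell in the Tfh-like culture (background 14.3% and 9.96%). With Tox2 2 of the 40 rose and 1 fell, a share of 7.5% that is near the background of 6.81%. Its medians were 0.33 and 0.39 for the culture and 0.03 and 0.11 for Tox2. That list shares genes with the signalling list, among them Stat2, Irf1, Irf7 and Irf9. The largest rise in that list was that of Ly6a, the surface antigen Sca-1, which had 60, 44, 6204 and 7310 counts in the order of libraries above and rose by 7.06 (SE 0.19). The GTPase gene Gvin1 rose with the culture by 1.92 (SE 0.11) and fell with Tox2 by 0.87 (SE 0.11, adjusted p = 0.0109). Rnf213 and Aim2, a DNA sensor of the PYHIN family, rose with Tox2 by 0.99 (SE 0.14) and 0.70 (SE 0.13).

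The last comparison asked where the Tox2 effect differed between the cultures. It leaves no degree of freedom and is described with counting intervals only. For 6 of the 62 members the Tox2 folds differed at least 2-fold (background 3.48%): Cmpk2, Gbp10, Ifi203, Ifi209, Isg20 and Oasl2. Oasl2 had 13 counts in Th0 GFP, 19 in Th0 Tox2, 9 in Tfh-like GFP and 69 in Tfh-like Tox2, and its difference, Tfh-like minus Th0, was 2.22. Ifi203 had a Tox2 fold of 0.21 in Th0 and 1.30 in Tfh-like. Ifi209 had 0.42 and 1.60, and Cmpk2, a mitochondrial nucleotide kinase gene, 0.04 and 1.19. In these 4 genes the library with both Tox2 and IL-6 was above the Tfh-like library with GFP. The Tox2 fold was higher in Tfh-like for 5 of the 6 members. Gbp10 went the other way, with 0.77 in Th0 and -0.58 in Tfh-like, on 23, 42, 36 and 24 counts in the order above. Ifi209 shares 33.7% of its 50-base words with other genes, and Gbp10 84.1%.

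Samhd1, the dNTPase that limits viral reverse transcription, differed with Tox2 mainly in Th0. It had 5239 counts in Th0 GFP, 11360 in Th0 Tox2, 9226 in Tfh-like GFP and 10409 in Tfh-like Tox2. The Th0 library with GFP stood apart below the others. The Tox2 ratio was 2.10 in Th0 (2.03 to 2.17) and 1.10 in Tfh-like (1.07 to 1.13), a difference of -0.93 on the log2 scale, just under the 2-fold limit.

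Tox2 folds of 1 sign in both cultures, each with an interval that excludes no difference, were found for 23 members, 15 higher and 8 lower (background 31.8%), and folds of opposite sign for 3 (4.51%). Across the 62 members the Tox2 folds in Th0 and in Tfh-like were correlated with r = 0.486 (Pearson) and rho = 0.522 (Spearman), and across all 10960 genes with 0.580 and 0.544. The folds for the culture with GFP and with Tox2 had 0.789 and 0.710 across the members and 0.811 and 0.711 across all genes. These describe genes, not replicates. The pairs share no library, and whether the cells of both cultures came from 1 infection is not given in the sources used here.

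The 28 tested members that passed for neither effect and were 2-fold apart in no pair included abundant genes. Slfn2 had 189 FPKM in Th0 GFP and 125 to 133 in the other libraries. Ifi30, encoding a lysosomal thiol reductase, had 33.3 to 47.3 FPKM, Slfn1 27.6 to 34.1 and Trim25, a ubiquitin ligase that acts with RIG-I, 14.5 to 20.5. Isg20l2, which the rule takes by its name alone, had 20.8 to 23.5 FPKM. The nuclear body gene Sp100 (0.32 and 0.37 with Tox2) and Trim30a (0.23 and 0.36) also belong here, as do Epsti1, Eif2ak2, Gbp4 and Slfn9.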

How the data were processed

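Per the file headers, the authors deposited 1 table per library with whole-number read counts and FPKM per gene. Per the submitters' processing notes the tools were MACS2, edgeR, Subread, featureCounts, Bowtie2 and Trim Galore (0.4.4), in no given order or role, and the build mm10. No source used here gives the annotation or strand setting, so overlapping or near-identical genes may share or lose reads. Listed genes had a CPM of at least 0.658 in their second-highest library. Members were taken by gene name; members and lists were chosen with earlier results of these data known.

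Counts were scaled by TMM over all listed genes (edgeR 4.0.16, R 4.3.3; factors 0.966 to 1.03). Genes reaching a CPM of 1 in any library (10960) were tested in an additive model (culture plus virus) by edgeR's quasi-likelihood test. It has 1 residual degree of freedom (median prior 5.52). A check on simulated data drew counts with a common spread, an equal Tox2 fold in both cultures and no culture effect. It cannot show how the test behaves where the Tox2 effect differs between cultures. Pair folds used a prior count of 2 and exact 95% conditional binomial intervals, which cover counting error only. Full statistics were reserved for members that passed or were 2-fold apart in a pair, and are printed for those that lead each role. Within a role the text leads with the highest FPKM and largest folds; from the gene lists it names only some of the genes that passed, and the interferon receptors. DESeq2 1.42.0, limma-voom 3.58.1, other scalings, filters and prior counts, and removal of a length trend were alternatives. Gene coordinates and 50-base words came from GENCODE M21 (GRCm38), promoters from RefSeq (GRCm38.p6).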

Additional observations from a re-analysis of the deposited data

Results flagged for a closer look

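Igtp, Irgm2 and Isg20 had Tox2 folds of opposite sign in the cultures, each with a counting interval that excludes no difference. These are 3 of the 62 tested members, a share near the 4.51% found over all genes. The difference, Tfh-like minus Th0, was -0.68 for Igtp, -0.79 for Irgm2 and 1.66 for Isg20 on the log2 scale. Igtp and Irgm2, immunity-related GTPases whose annotated spans overlap on chromosome 11 and of whose 50-base words 11.8% and 7.83% occur in other genes, had 0.35 and 0.52 in Th0 and -0.33 and -0.27 in Tfh-like. Isg20, an exonuclease gene, had 258 counts in Th0 GFP, 119 in Th0 Tox2, 94 in Tfh-like GFP and 138 in Tfh-like Tox2. With 1 library per group these differences were not tested.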

How the results depend on the processing

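No paired analysis was possible because each group held 1 library; for the same reason no library could be left out of the additive fit. The 6 members called for Tox2 became 10 with scaling by total counts, 2 with DESeq2 and 2 with the length trend removed. Gbp2 and Parp12 passed in all 7 alternatives. Over all genes these settings called 1193, 484 and 418 genes for Tox2, against 746. The cause was not tested. Over all tested genes the Tox2 fold was correlated with gene length, with a Spearman rho of 0.302 in Th0 and 0.126 in Tfh-like. For the culture folds rho was 0.0462 with GFP and -0.117 with Tox2. The 25 members called for the culture were 19 to 25 in all alternatives, 19 with DESeq2 (without Bst2, Gbp2b, Ifi47, Ifit2, Parp10 and Slfn3) and 24 with total counts (without Parp10). DESeq2 called 1609 genes in place of 2656. No called fold changed sign. The counts of members 2-fold apart stayed within 1.5 times in every pair. The members' median culture fold with GFP was 0.29 with total-count scaling, where the median of all genes was -0.11. The number of members whose Tox2 folds differed 2-fold between cultures was 5 or 6, under alternatives added after seeing the data. With the longer ISRE form (the core followed by C) the share of members with a match was 38.8%, against 1.10% of tested genes. Counts under about 30, as in Isg15, Ifit1 and Oasl2, limit the precision.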

Other observations

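By TMM-scaled CPM 31 of the 64 members were highest in Tfh-like Tox2, 15 in Tfh-like GFP, 12 in Th0 GFP and 6 in Th0 Tox2. The same count was not made over all genes, so these numbers do not set the members apart. Genes of very low counts, such as Ifit3 and Oas1e, are included. The 15 included Gbp2, Gbp2b, Gbp5, Ifitm1, Ifitm2, Ifitm3, Irgm1, Oas3 and Zbp1, and the 31 included Ddx58, Dhx58, Isg15, Oasl2, the 4 PARP genes, Slfn5, Tgtp1 and Tgtp2. All members together took 0.268% of counts in Th0 GFP, 0.296% in Th0 Tox2, 0.343% in Tfh-like GFP and 0.347% in Tfh-like Tox2. Single abundant genes weigh heavily in these sums. The member total was 34945 counts in Th0 GFP and 40457 in Th0 Tox2, where Samhd1 alone had 5239 and 11360. In Tfh-like GFP the total was 46405, with 5113 counts from Gbp2, which had 1284 in Th0 GFP.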
